A study of Mus musculus with 9 samples.

Results

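Interferon receptors, their signal transducers and interferon-stimulated genes were followed in young and old mouse kidney. They were a list of 44 gene symbols, of which 42 were found among the 13081 genes of the expression table. Of the 42, 15 are receptors and signal transducers and 27 are effector genes, meaning the interferon-stimulated genes and the RNA sensors. The RNA helicase gene Dhx58 and the oligoadenylate synthetase gene Oas1a were not among the table's genes. Kidneys came from wild-type mice (C57BL/6 in the study's methods), at 3 months for the young group (n = 4) and at 16 months for the old group (n = 5). Each library was made from total RNA by priming from the poly(A) tail and reading transcript ends, so a gene's count does not scale with its length and levels were not compared between genes. The question was whether the pathway's transcripts differ between the ages, and whether receptors and signal transducers differ in the same way as effector genes.

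Interferons are signalling proteins that cells release when they sense viral or misplaced nucleic acid. Type I interferons bind a receptor made of Ifnar1 and Ifnar2 and interferon gamma binds one made of Ifngr1 and Ifngr2. The receptors activate the JAK kinases, which phosphorylate STAT transcription factors, and STAT and IRF proteins then switch on interferon-stimulated genes, whose products detect, degrade or trap viral RNA and particles. In the kidney these genes are known to respond in tubular, endothelial and immune cells alike.

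Values are normalised counts, which are read counts divided by 1 size factor per library. Tests were made with limma on log2(normalised count + 1), old against young, over the 12667 genes that reached 10 normalised counts in 4 or more libraries. Called genes are those with a Benjamini-Hochberg adjusted p under 0.05, and all adjusted p values below are from that test. The libraries held 4486406 to 6355095 reads in the table. Library titles carry a prefix that differs between the ages, so age cannot be told apart from any difference in preparation linked to the prefix. In whole kidney, fewer cells of a type and less RNA per cell cannot be told apart either. Nothing in the labels says whether each library came from a separate mouse, and p values measure only the spread between these libraries. The 7 proximal tubule, 8 distal nephron and 5 podocyte markers looked for were all in the table. Mitochondrial genes held 27.0% to 29.7% of the reads in the young and 35.8% to 38.1% in the old libraries.

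Of the 44 genes, 41 passed the filter on low counts, all but the 2 genes absent from the table and the GTPase gene Gbp3. In the old kidneys 20 were called higher and 6 were called lower, and 15 were not called. Of all genes tested, 59.7% were called, 29.2% higher and 30.5% lower, so the called share of the pathway genes (63.4%) was near that of all genes while the share called higher (48.8%) was above it and the share called lower (14.6%) below it. No test was made of these shares. When mitochondrial genes were dropped and the other genes brought to equal totals, 9 receptors and signal transducers and 14 effector genes were called higher and 1 and 4 were called lower, while the median log2 fold change of all genes moved to 0.13 and the higher calls from 48.9% to 58.5% of all called genes. The median log2 fold change was 0.52 over the 41 genes and -0.0027 over all genes tested. The old and young libraries did not overlap for 16 genes, 12 of them higher and 4 lower in the old kidneys, which is 39.0% of the 41 against a background of 49% of all genes (23.3% old higher, 25.7% old lower).

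**Figure D1:**
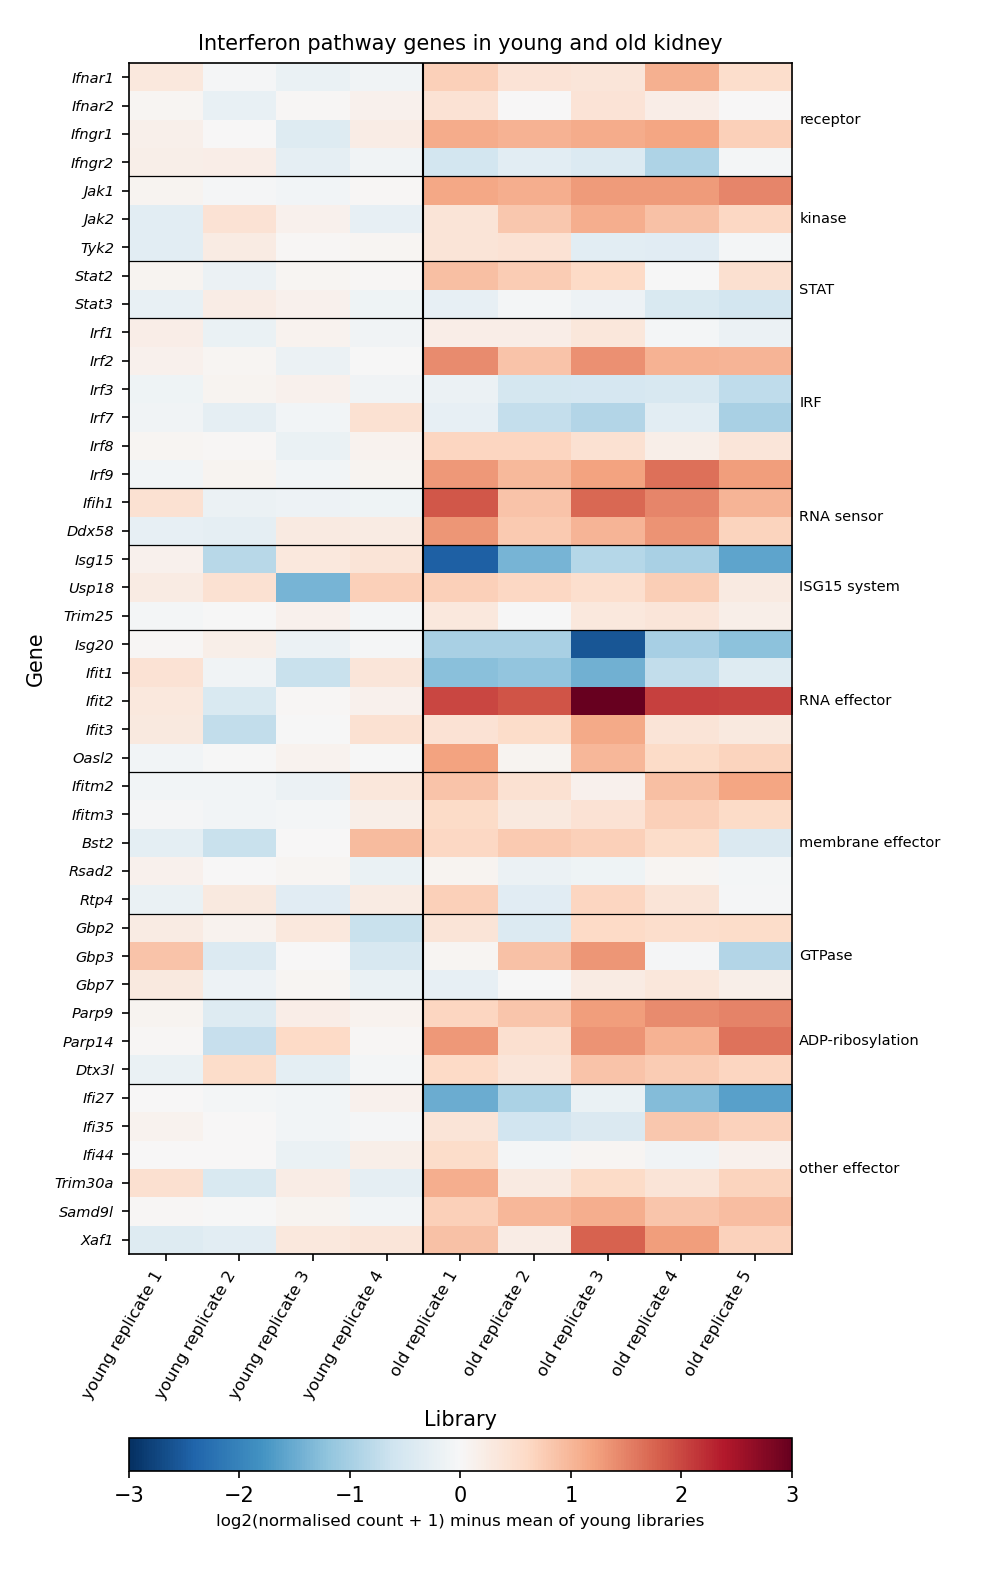
Colour gives log2(normalised count + 1) in each of the 9 libraries (columns) minus the mean of the 4 young libraries, for the 42 genes in the table (rows), grouped by role. Jak1, Irf2, Irf9 and Ifit2 are red in all 5 old libraries and Isg15 and Isg20 are blue in all 5. Ifi27 is blue in the old libraries apart from old replicate 3, where it is near white.

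Of the 4 receptor subunits, 1 of each type was called higher, and no test was made between subunits. Ifngr1, the ligand-binding chain of the interferon gamma receptor, had 103, 94.3, 70.6 and 108 normalised counts in the 4 young libraries and 203, 191, 202, 214 and 153 in the 5 old libraries. Every old library was above every young one, with a log2 fold change of 1.04 ± 0.15 (SE, adjusted p = 6.8e-06). Its partner Ifngr2, the signalling chain, had 68.8, 70.0, 51.0 and 57.0 in the young and 41.3, 49.2, 45.6, 31.7 and 58.3 in the old libraries. The Ifngr2 ranges overlapped, and the gene was not called, with a log2 fold change of -0.45 (95% interval -0.87 to -0.04) and an adjusted p of 0.053. Ifngr2 passed the threshold when young replicate 3 (adjusted p = 0.044), old replicate 2 (0.048) or old replicate 5 (0.023) was left out, within a range of 0.023 to 0.18 over all alternatives run.

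Ifnar1, a chain of the type I receptor, had 60.6, 47.6, 42.2 and 45.3 normalised counts in the young libraries and 80.2, 64.5, 62.9, 103 and 70.0 in the old ones. The lowest old library was just above the highest young one, and the gene was called higher, with a log2 fold change of 0.62 ± 0.18 (adjusted p = 0.0072). Of the 50-base stretches in the last 500 bases of its transcript, 6.43% also occur in other genes, which makes its counts slightly uncertain. The second chain, Ifnar2, had 159, 132, 158 and 167 in the young and 209, 154, 203, 177 and 154 in the old libraries, which overlapped, and it was not called (log2 fold change 0.21, 95% interval -0.06 to 0.49, adjusted p = 0.17). Ifnar2 was called higher when mitochondrial genes were dropped (0.35, adjusted p = 0.030) or the length trend was removed (0.32, adjusted p = 0.041), and its adjusted p lay between 0.030 and 0.61 over all alternatives run. On GRCm38, 3 of these 4 receptor genes lie within 193 kb of chromosome 16 (91372783 to 91565623), with Ifnar2 first, then the interleukin 10 receptor gene Il10rb, then Ifnar1 and Ifngr2, while Ifngr1 is on chromosome 10 (19591949 to 19610229). Il10rb, named here for its position after its values were seen, was called lower (-0.53, adjusted p = 0.0071), so these neighbours held called values of both signs.

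Of the 3 kinases that bind the receptor tails, Jak1 showed the clearest separation. Jak1, which serves both receptor types, had 255, 236, 227 and 246 normalised counts in the young and 542, 512, 587, 582 and 664 in the old libraries. No old library came near the young range, and the mean rose from 241 ± 11.9 (SD, n = 4) to 577 ± 57.3 (SD, n = 5), or 1.25 ± 0.10 (SE) on the log2 scale (adjusted p = 6.3e-09). Jak2, which serves the interferon gamma receptor, was also called higher (0.76, adjusted p = 0.0067), with ranges that overlapped. Tyk2, which serves the type I receptor, had a log2 fold change of 0.017 (95% interval -0.43 to 0.46, adjusted p = 0.95), and its sign changed without young replicate 1 (-0.091), old replicate 1 (-0.073) or old replicate 2 (-0.087).

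Of the 2 STAT factors among the 44 genes, Stat2 was called higher and Stat3 was not called. Stat2, a subunit of the complex that type I interferon assembles, had a log2 fold change of 0.55 ± 0.20 (adjusted p = 0.026). That call was lost without young replicate 2 (adjusted p = 0.077), old replicate 1 (0.068) or old replicate 2 (0.056), within a range of 0.0053 to 0.10 over all alternatives run. Stat3, used by interleukin 6 and other cytokines as well, was at -0.29 (95% interval -0.55 to -0.03, adjusted p = 0.051), next to the threshold, and it passed under 11 of 21 alternatives (adjusted p 0.0011 to 0.33). Jak1 overlaps the predicted gene Gm12785 on the same strand and Ifnar2 overlaps Gm21970, so part of their reads could have been assigned to these genes or left out.

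The IRF transcription factors moved in both directions, with 3 called higher, 2 called lower and 1 not called. Irf9, the DNA-binding subunit of the complex that holds Stat2, had 66.3, 73.8, 66.7 and 74.2 normalised counts in the young and 174, 139, 162, 224 and 169 in the old libraries. The old values were all well above the young ones, and the log2 fold change was 1.28 ± 0.14 (adjusted p = 4.4e-07). Irf2, known as an antagonist of Irf1 at shared sites, had 179, 171, 144 and 161 in the young and 438, 294, 424, 339 and 331 in the old libraries. These ranges were also far apart, with a log2 fold change of 1.14 ± 0.13 (adjusted p = 4.3e-07), whereas Irf1 itself was at 0.10 (95% interval -0.22 to 0.42, adjusted p = 0.58). Irf8, a factor of macrophages, dendritic cells and B cells, had 145, 143, 122 and 148 in the young and 218, 218, 192, 158 and 178 in the old libraries. Old replicate 4 was the closest to the young range, and the log2 fold change was 0.46 ± 0.13 (adjusted p = 0.0049). Irf9 overlaps Rnf31 and Irf8 overlaps Gm20388 on the same strand, which leaves their counts uncertain in part.

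Among the 44 genes, both IRF genes called lower encode factors that induce interferon itself. Irf3, which is present before infection and is activated by phosphorylation, had 156, 179, 186 and 158 normalised counts in the young and 149.7, 117, 119.7, 120.3 and 98.7 in the old libraries. The highest old library was just under the lowest young one, with a log2 fold change of -0.49 ± 0.13 (adjusted p = 0.0042). Irf7, which amplifies the interferon response, was at -0.63 ± 0.24 (adjusted p = 0.032) with overlapping ranges, and it lost its call without young replicate 1, 3 or 4 or without old replicate 3 or 5 (adjusted p between 0.050 and 0.14). With a transcript length trend removed, described below, the Irf3 and Irf7 calls were also lost, at log2 fold changes of -0.25 (adjusted p = 0.11) and -0.55 (0.061), with ranges over all alternatives of 0.0014 to 0.11 for Irf3 and 0.019 to 0.14 for Irf7.

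**Figure D2:**
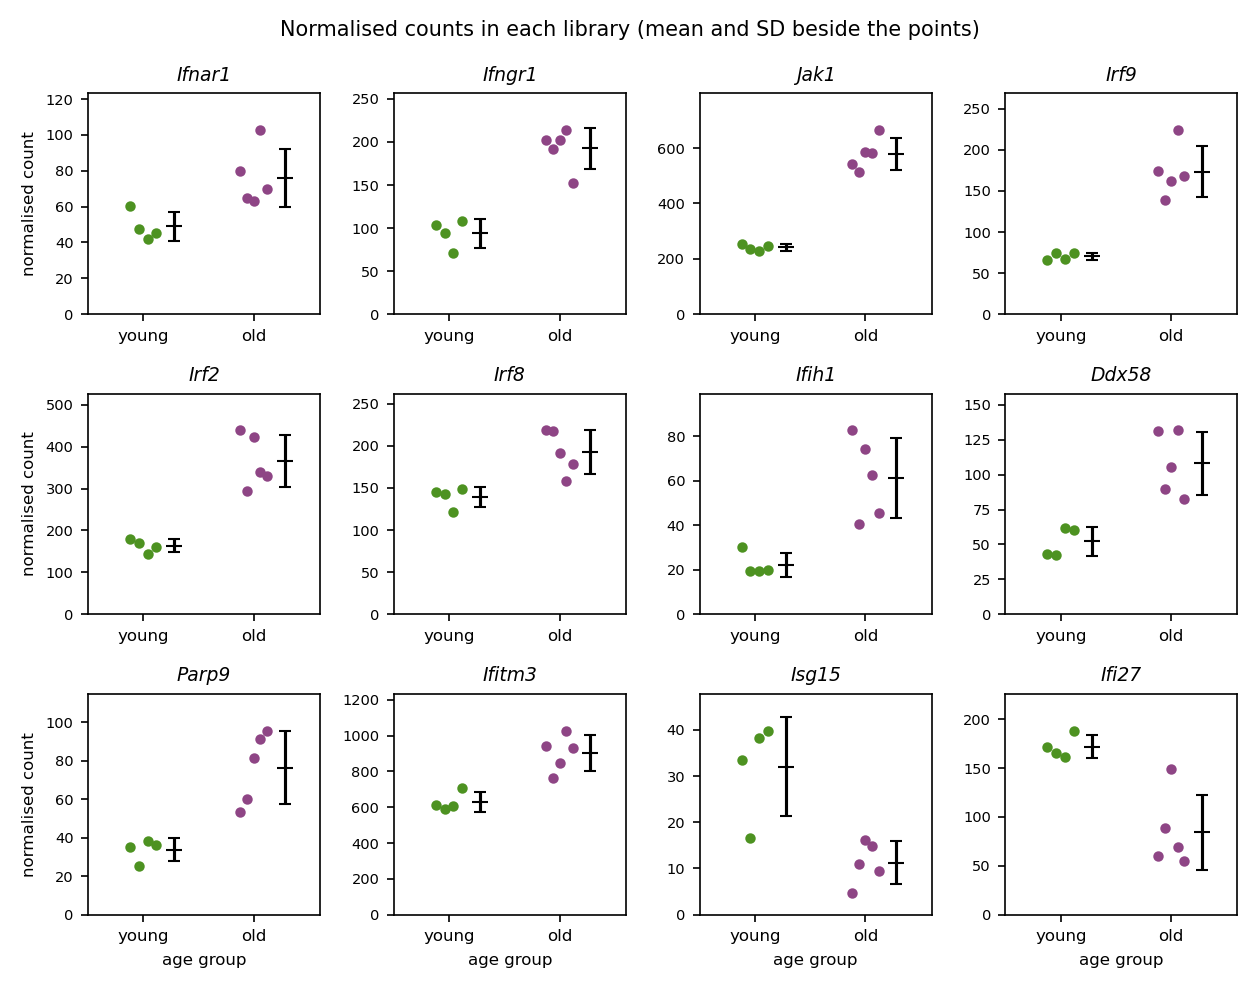
Points are normalised counts (y axis, from 0) in the 4 young and 5 old libraries for 12 of the pathway genes, with the mean and SD beside them. All 12 were taken from genes whose ages did not overlap, so the separation in every panel follows from that choice. Of the 41 genes tested, 16 had no overlap, 12 of them higher and 4 lower in the old libraries. Isg15 and Ifi27 are the panels in which the old libraries are lower. Irf3 and Isg20, also lower without overlap, are not shown.

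The cytoplasmic RNA sensors, which detect double-stranded or triphosphorylated RNA, were called higher in both cases that were measured. Ifih1, which encodes MDA5, had 30.3, 19.4, 19.6 and 19.9 normalised counts in the young and 82.5, 40.5, 74.0, 62.5 and 45.6 in the old libraries. Young replicate 1 stood above the other young libraries and still below every old one, and the log2 fold change was 1.39 ± 0.24 (adjusted p = 6.2e-05). Ddx58, which encodes RIG-I, had 43.4, 42.8, 61.8 and 60.7 in the young and 131, 89.7, 105, 132 and 82.7 in the old libraries. Its ranges did not overlap, with a log2 fold change of 1.03 ± 0.18 (adjusted p = 8.5e-05).

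The ISG15 system tags proteins with a ubiquitin-like modifier. Isg15, the modifier, had 33.6, 16.5, 38.2 and 39.8 normalised counts in the young and 4.71, 10.9, 16.2, 14.9 and 9.55 in the old libraries, from between 4 and 44 reads in a library. Young replicate 2 was nearly as low as the highest old library, yet the ranges did not overlap and the log2 fold change was -1.45 ± 0.35 (adjusted p = 0.0016). Usp18, the protease that removes the modifier, had 2 to 13 reads in a library and was not called (0.57, adjusted p = 0.25). Trim25, a ubiquitin ligase of the RIG-I pathway, was not called (0.23, adjusted p = 0.081). Trim25 was called higher when mitochondrial genes were dropped (0.37, adjusted p = 0.0072) or without old replicate 2 (0.29, 0.021). Its adjusted p lay between 0.0072 and 0.98 over all alternatives run.

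Genes of the Ifit family, whose proteins bind viral RNA, differed in sign although Ifit2, Ifit3 and Ifit1 lie within 99.3 kb of chromosome 19 (34550694 to 34650009, GRCm38). The library values of Ifit2, Ifit1 and Isg20 are given for this contrast and were chosen after they had been seen. Ifit2 had 7.37, 3.89, 5.88 and 6.34 normalised counts in the young and 25.9, 24.1, 52.7, 27.1 and 26.5 in the old libraries. It had the largest rise of the 41 genes, with a log2 fold change of 2.19 ± 0.31 (adjusted p = 8.0e-06), from only 4 to 52 reads in a library. Ifit1 had 28.7, 19.4, 12.7 and 27.2 in the young and 8.25, 8.75, 7.10, 12.1 and 15.9 in the old libraries. Its ranges overlapped through young replicate 3 and old replicate 5, and it was called lower (-0.999 ± 0.33, adjusted p = 0.015), a call lost without young replicate 1 (adjusted p = 0.065) or young replicate 4 (0.059) and ranging from 0.0070 to 0.065 over all alternatives. Ifit3 was not called (0.56, adjusted p = 0.068), and 14.9% of the 50-base stretches at its transcript end also occur in its near copy Ifit3b, so its counts are uncertain. Ifit3 was called higher when mitochondrial genes were dropped (0.70, adjusted p = 0.030) or without young replicate 4 (0.72, 0.036). Its adjusted p lay between 0.0098 and 0.56 over all alternatives run.

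The other RNA effectors also split. Isg20, an RNA exonuclease, had 29.5, 33.0, 25.5 and 28.1 normalised counts in the young and 14.1, 14.2, 4.06, 14.0 and 11.7 in the old libraries. All old libraries were lower than all young ones, with a log2 fold change of -1.35 ± 0.33 (adjusted p = 0.0018). Oasl2, of the oligoadenylate synthetase family, was called higher (0.70, adjusted p = 0.015), and its lowest old library, old replicate 2, was within the young range.

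Membrane effectors include proteins that block the entry or release of viruses. Ifitm3, which restricts fusion in endosomes, had 610.1, 591, 606 and 709 normalised counts in the young and 942, 765, 845, 1028 and 929 in the old libraries. The ranges did not overlap, with a log2 fold change of 0.52 ± 0.10 (adjusted p = 0.00025). Ifitm2 was called higher as well (0.71, adjusted p = 0.0019), with ranges that overlapped. Of the 50-base stretches at the transcript ends, 41.9% for Ifitm2 and 14% for Ifitm3 occur in other genes, among them Ifitm1 and predicted genes, so the counts of both are uncertain. Bst2 (tetherin, 0.45, adjusted p = 0.25), Rsad2 (viperin, -0.045, adjusted p = 0.74) and Rtp4 (0.28, adjusted p = 0.32) were not called. The interval for Rsad2 was narrow (-0.27 to 0.18), and that for Bst2 was wide (-0.25 to 1.15).

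Of the guanylate-binding GTPases, classical targets of interferon gamma, the 2 tested among the 44 genes were not called. Gbp2 had a log2 fold change of 0.32 (95% interval -0.29 to 0.94, adjusted p = 0.36) and Gbp7 one of 0.10 (-0.26 to 0.46, adjusted p = 0.63). Gbp3, which was not tested, ranged from 4.53 to 13.1 normalised counts in the young and from 3.18 to 18.3 in the old libraries. The 3 genes lie within 108 kb of chromosome 3.

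All 3 genes of the Parp9, Parp14 and Dtx3l group, whose products carry out ADP-ribosylation and ubiquitylation together, were called higher. Parp9 had 35.2, 25.3, 38.2 and 36.2 normalised counts in the young and 53.0, 60.2, 81.1, 91.4 and 95.5 in the old libraries. The ranges did not overlap, with a log2 fold change of 1.13 ± 0.21 (adjusted p = 0.00012). Parp14 was at 1.16 ± 0.25 (adjusted p = 0.00065) and Dtx3l at 0.65 ± 0.19 (adjusted p = 0.0072), both with overlapping ranges. The genes lie within 140 kb of chromosome 16 (35832874 to 35972605, GRCm38). Parp9 and Dtx3l start head to head on opposite strands and share 682 bases there. The counting was by strand, so reads of the pair could be told apart.

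Among the remaining effectors, 3 were called higher, 1 was called lower and 2 were not called. Ifi27, a gene induced by type I interferon, had 172, 165, 162 and 188 normalised counts in the young and 60.1, 88.6, 149, 69.0 and 55.2 in the old libraries. Old replicate 3 was close to the young range and the other old libraries were far below it, and the log2 fold change was -1.11 ± 0.22 (adjusted p = 0.00021). Samd9l, a restriction factor of poxviruses, had 189, 182, 194 and 173 in the young and 304, 366, 393, 330.2 and 350.1 in the old libraries. The old libraries were all well above the young ones, with a log2 fold change of 0.91 ± 0.11 (adjusted p = 7.7e-07). Xaf1, a pro-apoptotic gene, was called higher (0.96, adjusted p = 0.0081), as was Trim30a (0.60, adjusted p = 0.022), which lost its call without young replicate 2 (adjusted p = 0.095), young replicate 4 (0.071) or old replicate 1 (0.066) and ranged from 0.0061 to 0.11 over all alternatives. Ifi35 (0.18, adjusted p = 0.62) and Ifi44 (0.12, adjusted p = 0.52) were not called.

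**Figure D3:**
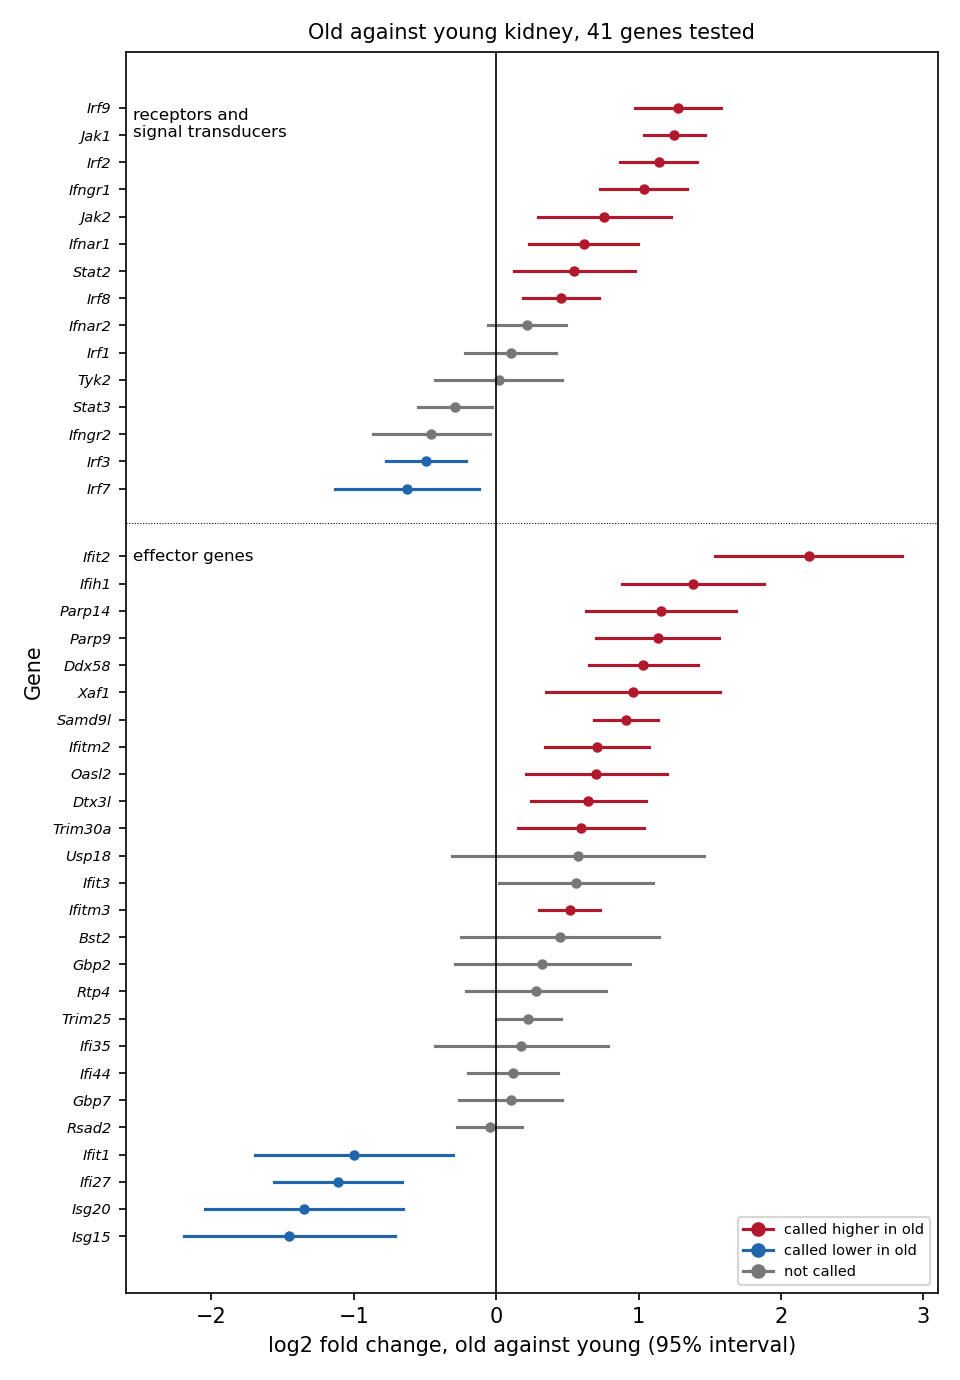
Points are log2 fold changes of old against young kidneys (x axis) with 95% intervals for the 41 genes tested, receptors and signal transducers above the dotted line and effector genes below it. Receptors and signal transducers run from -0.63 to 1.28 and effector genes from -1.45 to 2.19, and red or blue marks an adjusted p under 0.05.

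Of 15 receptors and signal transducers, 10 were called, 8 higher and 2 lower, with a median log2 fold change of 0.46. Of 26 effector genes tested, 16 were called, 12 higher and 4 lower, with a median of 0.54. The called share was 66.7% for the receptors and signal transducers and 61.5% for the effector genes. Both were near the 59.7% of all genes tested, of which 29.2% were called higher and 30.5% lower. The median absolute log2 fold change was 0.68 for the effector genes against 0.55 for the receptors and signal transducers and 0.56 for all genes tested, and the median SE was 0.24 for effectors against 0.15. Stat2, Irf1, Irf7, Irf8 and Irf9 are themselves interferon-stimulated, and counting them as effectors left 6 of 10 receptors and signal transducers called (5 higher, 1 lower) and 20 of 31 effectors (15 higher, 5 lower). The difference between the groups was not tested. Among genes with a mean of at least 100, 7 of 8 receptors and signal transducers and 4 of 7 effectors were called, against 4101 of 5655 genes over the table.

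Summed over each group, the normalised counts of the receptors and signal transducers were 1698 to 1787 in the young and 2350 to 2649 in the old libraries. Those of the effector genes were 2236 to 2478 in the young and 2702 to 3354 in the old libraries. Both sums were higher in every old library than in any young one, and the lowest old effector sum was in old replicate 2. Old replicate 2 had the lowest old value for 13 of the effector genes. For 12 of the 26 called genes it was the old library nearest the young mean, and the same library was nearest for 37.5% of all called genes.

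Other genes of the pathway were taken from a list of 112, which was written with earlier results of these data known. Of them 80 were in the table and 79 were tested, with 16 called higher, 21 called lower and 42 not called, and a median log2 fold change of -0.01. The called share was 46.8% (20.3% higher and 26.6% lower), against 59.7% (29.2% and 30.5%) of all genes tested, a difference that was not tested. Among receptors, STAT factors and regulators 3 were higher and 5 lower of 20, among sensors and adaptors 3 and 3 of 13, and among stimulated genes 10 and 13 of 46. Among called genes of this list whose mean reached 20 normalised counts, the largest falls were in the proteasome activator gene Psme2 (-2.50 ± 0.23, adjusted p = 2.8e-08), the immunity-related GTPase gene Irgm2 (-2.39 ± 0.26, adjusted p = 2.9e-07), the transcription factor gene Irf5 (-2.13 ± 0.27, adjusted p = 2.2e-06) and the immunoproteasome subunit gene Psmb9 (-2.12 ± 0.25, adjusted p = 9.7e-07). In each of the 4 the old libraries lay far under the young ones, as for Psme2, with 166, 181, 202 and 159 normalised counts in the young and 22.4, 44.8, 47.7, 21.5 and 24.4 in the old libraries. Under the same limit the largest rises were in Eif2ak2, the kinase PKR that is activated by double-stranded RNA (1.13, adjusted p = 0.0022), the phosphatase gene Ptpn6 (0.96, adjusted p = 1.2e-05), Rnf135, a ubiquitin ligase for RIG-I (0.92, adjusted p = 0.00045), and the nuclear body gene Sp110 (0.91, adjusted p = 0.0095, with old replicate 2 inside the young range). Sting1, the adaptor of the DNA sensor cGAS, was not called (0.20, adjusted p = 0.71), and Cgas was not among the table's genes.

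Promoter sequences were read for the 38 listed genes with an entry, from RefSeq starts on GRCm38.p6, over 250 bases before and 50 bases after the start. They were searched on both strands for GAAANNGAA, a shortened interferon-stimulated response element (ISRE, bound by the complex of Stat2 and Irf9 and by other IRF factors), and for TTCNNNGAA, the gamma-activated site (GAS, bound by STAT dimers), whose letters read the same on both strands. Overlapping matches were counted separately, and matches to the 2 motifs can overlap, as in Bst2. The ISRE letters were in 19 of the 38 (50%), in 17 of 23 effector genes and 2 of 15 receptors and signal transducers, against 8.63% of the 9880 table genes with an entry. The GAS letters were in 12 of the 38, against 7.97% of the table genes. A match describes the letters and is not a site of binding. Of the 19 genes with the ISRE letters, 8 were called higher, 2 were called lower, 7 were not called, 1 was not tested and 1 was not in the table, beside 59.7% called of all genes tested. The 4 promoters below are shown because 2 belong to genes that fell and 2 to genes that rose, each 5′ to 3′ on its gene's strand, with the ISRE matches on either strand in capitals. The first is that of Isg15 (chr4:156200769-156201068, minus strand), with 3 overlapping matches, the second that of Ifit1 (chr19:34640639-34640938, plus strand), with 3 matches of which the first pair overlap, the third that of Ifih1 (chr2:62646206-62646505, minus strand), with 2, and the last that of Samd9l (chr6:3399522-3399821, minus strand), with 1 just downstream of the start.
Isg15: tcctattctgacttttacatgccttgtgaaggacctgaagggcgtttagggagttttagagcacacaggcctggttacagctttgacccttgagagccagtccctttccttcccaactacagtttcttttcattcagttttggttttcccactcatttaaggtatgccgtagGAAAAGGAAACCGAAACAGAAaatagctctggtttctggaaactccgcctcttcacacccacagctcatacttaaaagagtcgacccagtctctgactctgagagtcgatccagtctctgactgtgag
Ifit1: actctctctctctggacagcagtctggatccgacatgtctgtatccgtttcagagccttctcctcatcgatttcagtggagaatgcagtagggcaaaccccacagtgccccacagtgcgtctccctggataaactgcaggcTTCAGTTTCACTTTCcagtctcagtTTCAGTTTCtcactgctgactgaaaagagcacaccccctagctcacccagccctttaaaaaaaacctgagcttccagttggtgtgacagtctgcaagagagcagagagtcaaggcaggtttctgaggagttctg
Ifih1: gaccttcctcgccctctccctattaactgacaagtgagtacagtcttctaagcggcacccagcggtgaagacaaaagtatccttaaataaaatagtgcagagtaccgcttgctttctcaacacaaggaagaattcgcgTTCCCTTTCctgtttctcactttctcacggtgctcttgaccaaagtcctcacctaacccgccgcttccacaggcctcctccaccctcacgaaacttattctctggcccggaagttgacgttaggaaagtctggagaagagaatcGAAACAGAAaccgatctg
Samd9l: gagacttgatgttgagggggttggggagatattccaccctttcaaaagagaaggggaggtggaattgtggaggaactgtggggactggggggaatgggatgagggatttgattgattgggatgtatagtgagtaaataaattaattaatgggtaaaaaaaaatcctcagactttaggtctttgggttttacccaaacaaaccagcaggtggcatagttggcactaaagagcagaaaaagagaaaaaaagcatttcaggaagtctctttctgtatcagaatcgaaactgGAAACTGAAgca

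Isg15 and Ifit1, with their matches upstream of the start, were lower in the old kidneys, and Ifih1, with 1 match upstream and 1 downstream, and Samd9l were higher. These genes were picked by direction, so they show no link between the position of a match and direction. Stat2, Irf2 and Ifitm2 had ISRE matches only upstream and were called higher. Ifit2, the gene with the largest rise, held no ISRE match in the windows read. In the receptors and signal transducers, Stat2 and Irf2 were the 2 with the ISRE letters, and both were called higher. Ifnar1, Ifngr1, Jak1, Jak2, Irf8 and Irf9, without the letters, were called higher too, beside 29.2% of all genes tested. The Stat2 call was lost under 5 of 20 alternatives.

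Called genes of the list that were higher had longer transcripts than those that were lower, as had called genes of the whole table. The longest annotated transcript had a median of 3871.5 bases in genes of the list called higher and 1559 in those called lower, against 4177 and 2724 in all genes called higher and lower. Spearman's rho between log2 fold change and length, given as a description across genes that share the same libraries, was 0.31 over the 41 genes and 0.28 over 12438 genes with a length. Of the 7 genes of the list under 1500 bases, Ifitm2 and Ifitm3 were called higher, Isg15, Isg20 and Ifi27 were called lower, and Bst2 and Ifi35 were not called. Of all genes under 1500 bases 18.5% were called higher and 45.3% lower. As an alternative, a length trend was removed from each library. This left 9 receptors and signal transducers called (8 higher, 1 lower) and 18 effectors (14 higher, 4 lower), against 7163 of 12438 genes over the table, of which 50.1% were higher. Under it Isg15 was at -1.04 (adjusted p = 0.019), Isg20 at -0.97 (0.016), Ifi27 at -0.72 (0.0092) and Ifit1 at -0.83 (0.039), while Ifitm3 moved from 0.52 to 0.93 (adjusted p = 6.3e-07) and Ifitm2 from 0.71 to 1.12 (2.8e-05). Ifnar2, Ifit3 and Bst2 were called higher (0.32, adjusted p = 0.041, 0.84, 0.0098, and 0.86, 0.032), Stat3 was called lower (-0.55, adjusted p = 0.0011), and Stat2 was no longer called (0.47, adjusted p = 0.056).

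**Figure D4:**
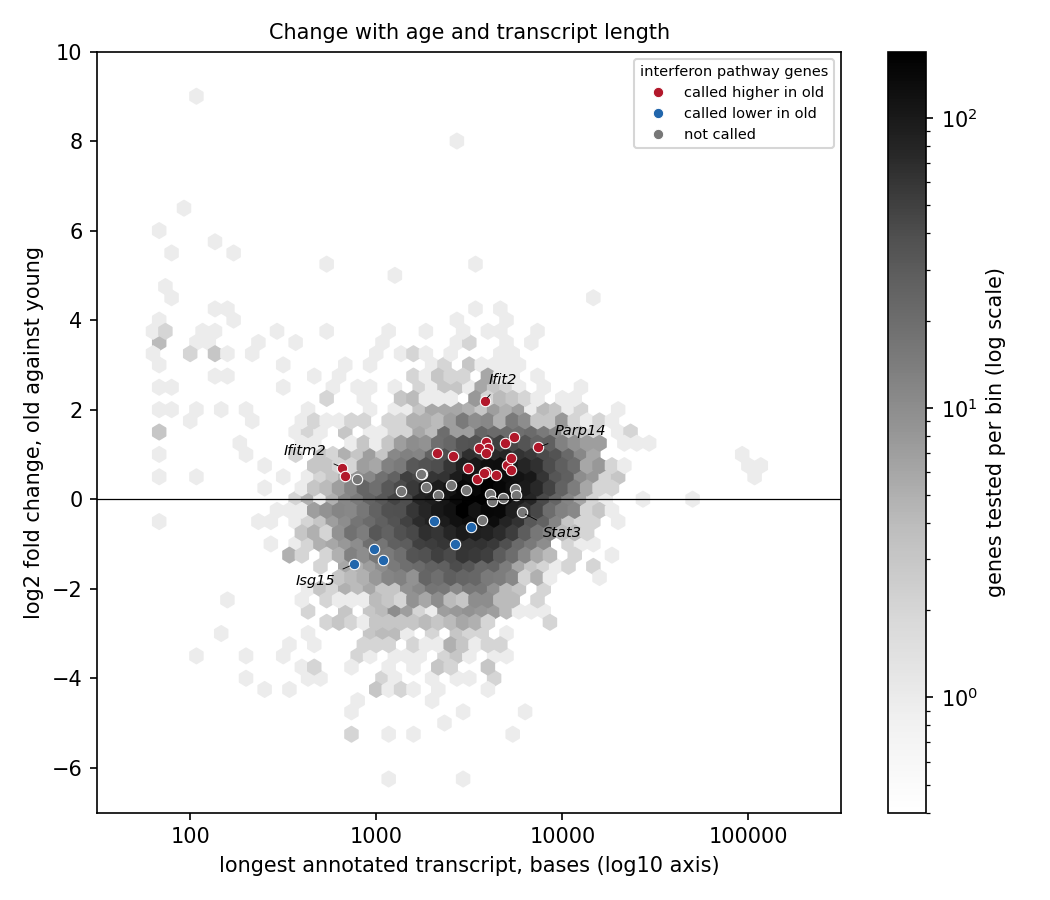
Grey bins count the genes tested by the length of their longest annotated transcript (x axis, log10) and their log2 fold change, old against young (y axis), and coloured points are the 41 interferon pathway genes. The called lower genes lie between 756 and 3240 bases and the called higher genes between 655 and 7417 bases.

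Markers of cell types were called between the ages as well, beside 59.7% of all genes tested (29.2% higher and 30.5% lower). The called share was 55.6% for the macrophage and 57.1% for the endothelial markers tested, near that of all genes. Of 10 macrophage markers 9 were in the table, 4 were called higher and 1 lower, and their summed normalised counts were 643 to 697 in the young and 677 to 915 in the old libraries, with Cd163 absent. Of 7 endothelial markers 4 were called higher and none lower, with sums of 1223 to 1387 in the young and 1566 to 1822 in the old libraries. Of 7 B and plasma cell markers 2 were in the table and both were higher, with sums of 38.9 to 99.1 in the young and 128 to 1107 in the old libraries, while Ms4a1, Cd79a, Cd79b and Mzb1 were among those absent. Of 8 T and NK cell markers 2 were in the table and the 1 tested, Trac, was called higher (1.01, adjusted p = 0.027), with sums of 4.86 to 19.9 and 10.6 to 41, and Cd3d, Cd3g, Cd4, Cd8a, Nkg7 and Gzma were absent. Neutrophil markers had sums of 54.9 to 79.7 in the young and 22.3 to 40.1 in the old libraries, with 3 of 6 in the table and 1 called lower. Of 6 fibroblast markers 1 was called higher and 4 lower, with sums of 1563 to 1941 in the young and 860.0 to 1483 in the old libraries, and of 6 dendritic cell markers 2 were in the table and none was called. Proximal tubule markers, of which 2 were called higher and 4 lower, had sums of 182022 to 213619 in the young and 122903 to 173620.1 in the old libraries. Distal nephron markers, with 3 called higher and 2 lower, had sums of 10744 to 11643 in the young and 13986 to 17151 in the old libraries, and podocyte markers, with 3 higher and 1 lower, had sums of 685 to 753 and 736 to 869.9. The macrophage sum of old replicate 2 was within the young range. The endothelial, B and plasma cell and distal nephron sums were above the young range in all 5 old libraries, as were 23.3% of all genes tested. Irf8, Ifngr1 and the summed effector genes were above it as well. The part of these markers in those results was not tested. Adipocyte markers differed within each age, from 271 to 1024 in the young and 58.8 to 914 in the old libraries, and of the 3 tested Fabp4 was called lower (-1.89, adjusted p = 0.00060). The 2 that were not called went the other way, at log2 fold changes of 2.10 and 2.36. Without the highest library of each age in these markers, young replicate 2 and old replicate 3, 8 receptors and signal transducers and 12 effectors were called, against 6817 genes over the table, a choice made after the data were seen. Stat2, Irf7, Ifit1, Oasl2, Trim30a and Xaf1 were the genes of the list that lost their call there (adjusted p between 0.051 and 0.11), as did Sp110 (0.69, adjusted p = 0.079). Their log2 fold changes there were 0.48 for Stat2, -0.65 for Irf7, -0.92 for Ifit1, 0.63 for Oasl2, 0.45 for Trim30a and 0.66 for Xaf1, against 0.55, -0.63, -0.999, 0.70, 0.60 and 0.96 with all libraries.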

How the data were processed

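RNA from 9 wild-type mouse kidneys was profiled, 4 at 3 months and 5 at 16 months, and groups were taken from the age in the labels. Per the labels, 500 ng of RNA went into stranded libraries primed with oligo(dT). The labels and the study's methods name different kit versions. The authors deposited 1 table, a signal on the count scale, that is, read counts per gene divided by a DESeq size factor. The submitters' processing notes name FastQC 0.11.7, TopHat2 2.0.10, Bowtie 1.0.0, SAMtools 0.1.19, HTSeq 0.6.1 and DESeq2, with build GRCm39. Counting was by strand, per the methods. In each library 100% of values were whole multiples of the smallest positive value (tolerance 0.01 reads), which gave the reads. How genes were chosen for the table is not given in the sources used here.

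limma 3.58.1 (lmFit, eBayes with a trend, R 4.3.3) was fitted to log2(normalised count + 1) over all 9 libraries with no covariate, and fold changes on this scale understate those of low counts. Intervals are 95% and cover these libraries only. On simulated counts the fits were checked before use. Alternatives were pseudocounts of 0.1 and 5, no filter, a minimum mean of 100 normalised counts, TMM factors, table totals, mitochondrial genes left out, robust eBayes, edgeR 4.0.16 and DESeq2 1.42.0 on the reads, a length trend removed by lowess (span 0.4), other classes, and each library left out. A floor of 3 reads was 4.72e-05% to 6.69e-05% of a library's reads, covering counting error only. Positions, lengths and shared sequence of the 98.1% of genes matched by symbol are those of GENCODE vM21 (GRCm38), a build the authors did not use for these kidneys. Promoters came from RefSeq on GRCm38.p6.

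The genes, lists and classes were chosen with earlier results of these data known. By rule, library values are given for the receptors and for called genes whose mean reached 20 normalised counts and whose ages did not overlap (14 genes), and of the other pathway genes the 4 largest rises and falls among called genes with that mean and the cGAS-STING genes are named. A gene that the rule also names is not reported here. Other names are said to have been chosen after seeing their values.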

Additional observations from a re-analysis of the deposited data

Results flagged for a closer look

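In 104 groups of libraries (the 42 listed genes in the table and 10 other pathway genes, each in each age), a single library stood apart from the rest of its age by Dixon's gap ratio in 5 cases, and about 1 in 20 groups, or 5.2 here, is expected by chance. Ifih1 in young replicate 1 was at 30.3 normalised counts against 19.4 to 19.9 in the other young libraries (gap ratio 0.945), which was below every old library. Isg20 in old replicate 3 was at 4.06 against 11.7 to 14.2 (gap ratio 0.834). Ifit2 in the same library was at 52.7 against 24.1 to 27.1 (gap ratio 0.852). Bst2 in old replicate 5 was at 12.7 against 26.1 to 30.6 (gap ratio 0.816), and Gbp2 in old replicate 2 was at 13.1 against 23.6 to 27.4 (gap ratio 0.794). Isg20 and Ifit2, the called genes with an old library apart, kept their direction and call without old replicate 3.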

How the results depend on the processing

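The whole table gave 7568 called genes in the main test, 7649 with edgeR and 7532 with DESeq2. Requiring a mean of at least 100 normalised counts tested fewer genes and left 4101 of 5655 called over the table, 7 of 8 receptors and signal transducers, 4 of 7 effectors and 9 of 23 other pathway genes. With Stat2, Irf1, Irf7, Irf8 and Irf9 counted as effectors, 6 receptors and signal transducers were called. Leaving out each library in turn gave 6900 to 7626 called genes, 9 to 11 receptors and signal transducers, 15 to 17 effectors and 30 to 38 other pathway genes. Changes of sign were limited to genes that were not called. Tyk2 turned to -0.035 with table totals and to -0.12 without the length trend, and it ran from -0.091 (without young replicate 1) to 0.11 with 1 library left out, below 0 also without old replicate 1 (-0.073) or old replicate 2 (-0.087). Gbp7 turned to -0.12 without the length trend, Rsad2 to 0.10 without mitochondrial genes, and Irf1 to -0.028 without the highest library of each age in adipocyte markers, where the log2 fold change of Sting1 was -0.010. Sting1 ran from -0.041 (without old replicate 5) to 0.52 with 1 library left out. The cause was not tested. Of the 41 genes, 24 kept their direction and side of the threshold under every alternative run, 7 lost their call under at least 1, 6 that were not called passed under at least 1, and 4 changed sign. No paired analysis was made, because the groups hold 4 and 5 libraries of different ages and the labels name no pairs. Among the 41 genes, depth limits Usp18, Isg15, Isg20, Ifit1 and Ifit2, each with fewer than 10 reads in at least 1 library.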
